A study of Homo sapiens with 27 samples.

Results

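The MYC, MAX and MXD network was read from gene counts in Panc1, a long-used human cell line from a pancreatic ductal adenocarcinoma. It is described here through 9 of the 21487 genes in the table: MYC, MAX, MXI1, MXD1, MXD3, MXD4, MNT, MGA and MLX. The genes were taken by name, by a rule that uses no measured value, though with earlier results of these data known. Parental Panc1 cells were compared with clones A and B, a pair of CRISPR-Cas9 knockout lines of ARNT, after 48 hours in each of 3 conditions. Normoxia was 20% O2 in regular medium (DMEM with serum), hypoxia was 1% O2 in regular medium, and the last condition was hypoxia in TIFM, a medium that imitates the interstitial fluid of pancreatic tumors. Each of the 9 groups had 3 libraries of polyA RNA. Each knockout line is 1 clone, so an effect of the clone and an effect of losing ARNT cannot be told apart within a line, and TIFM was used only in hypoxia. Nothing in the labels says that the 3 replicates were separate cultures, so p-values measure the spread between these libraries. For each gene that spread was estimated over all 9 groups together. SEs are therefore not widened for a group with a wider spread, or narrowed for a tighter one.

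The network turns on dimers with MAX. MYC with MAX binds the E-box CACGTG and recruits activating complexes that raise genes of ribosome assembly, nucleotide synthesis and cell division. MXD1, MXI1 (also called MXD2), MXD3, MXD4 and MNT compete for MAX at the same sites and recruit the SIN3 corepressor with its histone deacetylases. MGA also pairs with MAX and holds the polycomb complex PRC1.6 on DNA. MLX is a MAX-like protein that pairs with MXD1, MXD4 and MNT and with the glucose-sensing factors MLXIP (MondoA) and MLXIPL (ChREBP). ARNT (HIF1B) is the shared subunit of the hypoxia-inducible factors, and MXI1 is known as a gene these factors turn on.

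Total counts per library ranged from 26057022 to 38341713 (median 31727174). All 9 genes passed the filter on low counts and were among the 13943 genes tested. ARNT itself was counted in every library, at 44.6 to 77.4 CPM (counts per 1e6 counts, with library sizes scaled by TMM), so the sum over the gene does not show the edited sequence and is no check of the knockout labels. The clone A libraries in TIFM stood apart: their spread between replicates (a biological coefficient of variation of 29.3%) was the highest of the 9 groups, against 4.52% to 17.3% in the others, and their TMM factors (0.777 to 0.89) lay below those of all other libraries (0.925 to 1.08). Their mitochondrial genes took 1.78% to 1.8% of counts, against 2.3% to 4.49% in every other library. Of 6 markers of the line, VIM had group means of 1978 to 5717 CPM and KRT18 of 494.8 to 2162 CPM, while KRT7 reached only 9.3 CPM. The line markers moved with the groups. In TIFM 4 of 6 were lower in each genotype (20.4%, 34.2% and 27.9% of all tested genes in parental cells, clone A and clone B). In the same order 2, 1 and 1 were higher (21.8%, 33% and 25.9%). In clone A against parental cells in normoxia 4 were lower and 2 higher (15.8% and 15.9%). KRT8 went from 4501 to 1378 CPM with TIFM in parental cells, 1600 to 468.6 CPM in clone A and 4966 to 601.3 CPM in clone B, and stood at 1175 CPM in clone A against 4431 CPM in parental cells in normoxia. Among 8 markers of other cell types, CD68 stood at 84.6 to 235.6 CPM and ALB reached 5.418 CPM in clone A in TIFM. The remaining 6 summed to 0.18 to 1.55 CPM per group, and the part of these genes in the results was not tested.

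In parental cells in normoxia MYC was by far the most abundant of the 9 transcripts once length was taken into account, at 30.7 ± 3.91 CPM per kb of exon (SD, n = 3). MLX and MAX followed at 10.05 and 8.92 CPM per kb, with overlapping libraries, and then MGA at 7.28 and MXI1 at 4.57 CPM per kb. MXD1, MXD4 and MNT stood at 3.09, 2.95 and 2.87 CPM per kb, each overlapping its neighbour in the order, and MXD3 was lowest at 0.438 CPM per kb. In all 9 groups MYC ranked first and MXD3 last. The genes between them changed places: MXI1 was the second gene in parental hypoxia (17.4 CPM per kb) and in parental TIFM (35.3 CPM per kb). MXD1 took that rank in the hypoxic clones, with 25.3 CPM per kb (clone A) and 24.6 CPM per kb (clone B), and also in clone B in normoxia (12.7 CPM per kb). MAX took it in TIFM, at 43.2 CPM per kb in clone A and at 28.4 CPM per kb in clone B, where its libraries overlapped those of MXD1.

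**Figure D1:**
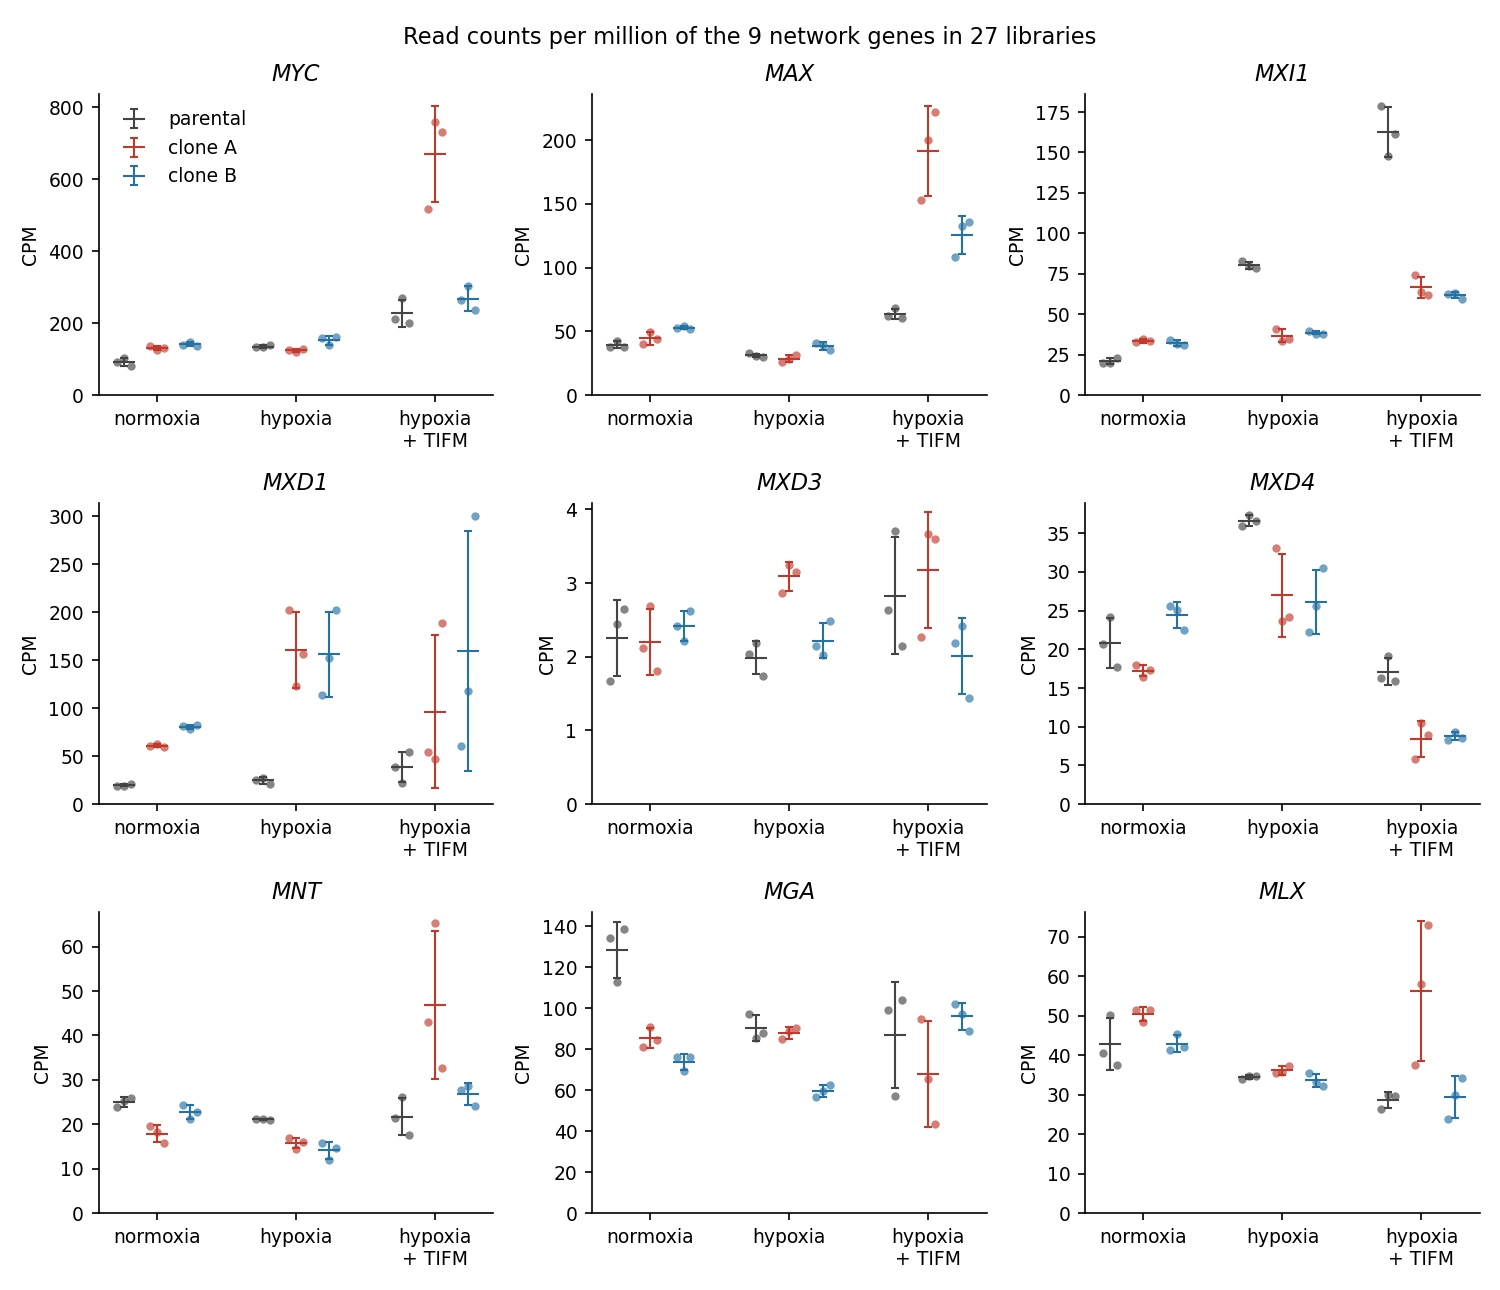
Levels of the 9 genes in CPM (y axes start at 0) by condition, with 1 point per library, a horizontal mark at the mean and bars of 1 SD (n = 3). MYC and MAX are highest in clone A in TIFM, MXI1 is highest in parental cells in TIFM, and the MXD1 libraries in TIFM scatter widely.

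Hypoxia against normoxia changed 5 of the 9 genes in parental cells, where edgeR's quasi-likelihood test called 30.2% of all tested genes at an adjusted p under 0.05 (Benjamini-Hochberg). Of these members 3 rose (15.4% of all genes rose) and 2 fell (14.9% fell). In clone A 4 members changed (22.2% of all genes), 2 upward (10.4%) and 2 downward (11.8%). In clone B 2 members changed (9.3%), 0 upward (4.46%) and 2 downward (4.84%). TIFM against regular medium, both in hypoxia, changed 4 members in parental cells (42.2%), with 3 higher (21.8%) and 1 lower (20.4%). It changed 6 members in clone A (67.2%), with 5 higher (33%) and 1 lower (34.2%), and 6 in clone B (53.7%), with 5 higher (25.9%) and 1 lower (27.9%).

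Clone A differed from parental cells in 5 members in normoxia (31.6% of all genes; 3 higher against 15.9%, 2 lower against 15.8%). It differed in 4 members in hypoxia (41.4%), 2 higher (20.5%) and 2 lower (20.9%), and in 7 in TIFM (61.7%), 5 higher (30.9%) and 2 lower (30.7%). Clone B differed in 5 members in normoxia (26.5%), 4 higher (13.2%) and 1 lower (13.3%). It differed in 6 in hypoxia (35.9%), 2 higher (16.9%) and 4 lower (19%), and in 4 in TIFM (47.5%), 2 higher (22.1%) and 2 lower (25.4%). With 9 genes, 1 gene is a large share, and these counts are not read as particular to the network.

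For hypoxia, clone A and parental cells differed in the size of the response for 2 members, both lower in the clone (6.23% of all genes differed, 4.04% lower). Clone B and parental cells did so for 1 member, again lower (4.73%, and 3.24% lower). For TIFM the response differed from the parental one in 5 members in clone A (38.9%), 4 higher (19.3%) and 1 lower (19.6%). In clone B it differed in 2 members (10.4%), 2 higher (4.06%) and 0 lower (6.34%). The TIFM response of clone B differed from that of clone A in 5 members (40%), 1 higher (18.8%) and 4 lower (21.3%). For hypoxia that last difference was called by edgeR in 0 of 13943 genes (0%), with 870 genes, MXD4 and MNT among them as the 2 members, at an unadjusted p under 0.05. DESeq2 called 36 genes there and 0 members. Both clones are set against the same parental libraries, so these differences are not independent of each other.

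**Figure D2:**
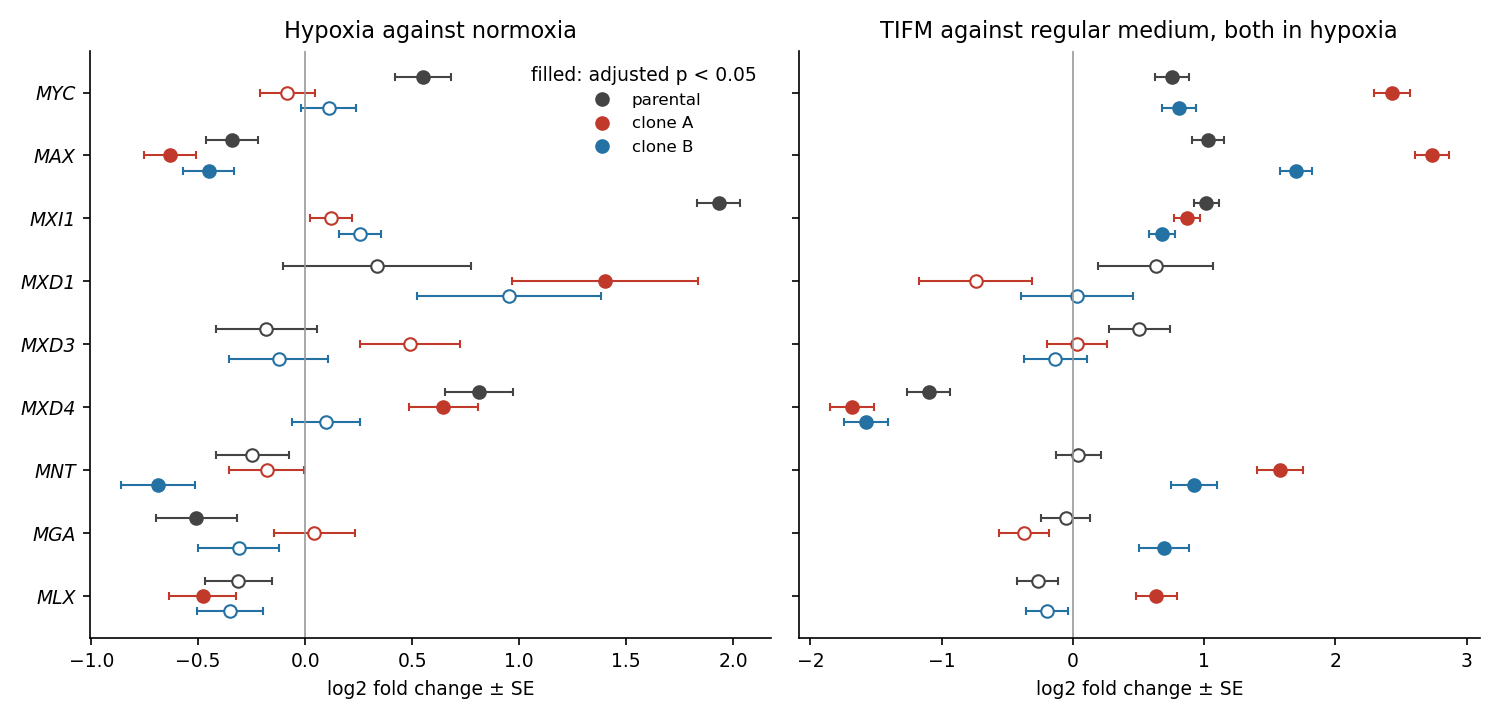
Log2 fold changes (x axes) of the 9 genes with 1 SE for hypoxia against normoxia (left) and TIFM against regular medium in hypoxia (right), by genotype, with filled points at an adjusted p under 0.05. MXI1 in hypoxia lies far to the right in parental cells alone among the 3 genotypes, and MYC and MAX in TIFM lie farthest to the right in clone A.

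MYC, the activator of the network (chromosome 8, 127735434 to 127741434, plus strand, GRCh38; 3 exon blocks), rose in hypoxia in parental cells and rose in TIFM in all 3 genotypes. Parental libraries stood at 91.4, 104.4 and 80.9 CPM in normoxia, 132.8, 132.7 and 139.7 CPM in hypoxia and 212, 271.2 and 199.3 CPM in TIFM. The 3 conditions did not overlap. Clone A libraries stood at 136.7, 126.8 and 131.5 CPM in normoxia and 124.9, 119.6 and 128.3 CPM in hypoxia, which overlap. In TIFM they reached 517.2, 760 and 731.7 CPM, above every other library of the study. Clone B stood at 139.4, 148.2 and 136.9 CPM in normoxia, 158.6, 138.7 and 160.9 CPM in hypoxia and 263.6, 304.1 and 235.7 CPM in TIFM. Libraries of both clones in normoxia overlapped those of parental cells in hypoxia.

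The log2 fold change of MYC in hypoxia was 0.55 ± 0.13 (SE, adjusted p = 0.00221) in parental cells, -0.08 ± 0.13 (adjusted p = 0.683) in clone A and 0.11 ± 0.13 (adjusted p = 0.657) in clone B. In normoxia MYC was above parental cells by a log2 difference of 0.51 (clone A, adjusted p = 0.00325) and 0.62 (clone B, adjusted p = 0.000632). The hypoxia response of clone A was lower than the parental response by a log2 difference of -0.63 ± 0.18 (adjusted p = 0.0361), while that of clone B (-0.44, adjusted p = 0.205) did not pass. The clone A difference was lost on leaving out any of its 12 libraries except parental normoxia replicate 2, with adjusted p up to 0.119.

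TIFM raised MYC by 0.75 ± 0.13 (SE, adjusted p = 5.04e-05) in parental cells, 0.81 ± 0.13 (adjusted p = 1.06e-05) in clone B and 2.43 ± 0.14 (adjusted p = 8.55e-14) in clone A on the log2 scale. The clone A response exceeded the parental one by 1.68 ± 0.18 (adjusted p = 1.96e-07) and was also larger than that of clone B, whose response minus that of clone A was -1.62 ± 0.18 (adjusted p = 1.34e-06). For clone B against parental cells the TIFM response differed by 0.06 ± 0.18 (adjusted p = 0.879). In bulk RNA, more transcript per cell and more cells with a high level cannot be told apart.

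MAX, the partner shared by MYC and the MXD proteins (chromosome 14, 65006174 to 65102695, minus strand), fell in hypoxia and rose in TIFM in all 3 genotypes. Parental libraries held 37.9, 42.9 and 37.9 CPM in normoxia, 32.8, 30.7 and 29.9 CPM in hypoxia and 62.2, 68 and 60.9 CPM in TIFM. Clone A held 39.9, 49.6 and 44.2 CPM, then 26.2, 28.6 and 31.4 CPM, then 153.1, 199.7 and 221.7 CPM in the same order. Clone B held 53, 54.2 and 51.6 CPM, then 41.2, 39.6 and 35.4 CPM, then 108.7, 132.9 and 135.9 CPM. No condition overlapped another within any genotype.

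The hypoxic fall of MAX was -0.34 ± 0.12 (SE, adjusted p = 0.0333) in parental cells, -0.63 ± 0.12 (adjusted p = 0.000719) in clone A and -0.45 ± 0.12 (adjusted p = 0.019) in clone B. The parental call was lost without parental hypoxia replicate 2 or 3 or parental normoxia replicate 2 and with upper-quartile factors, and the clone B call without clone B hypoxia replicate 3 or clone B normoxia replicate 1 or 2. TIFM raised MAX by a log2 change of 1.03 in the parental line, 2.73 in clone A and 1.70 in clone B (largest adjusted p = 2.83e-07). Both clones exceeded the parental response, clone A by 1.70 ± 0.17 (adjusted p = 5.77e-08) and clone B by 0.67 ± 0.17 (adjusted p = 0.0124). The response of clone B was in turn smaller than that of clone A, by a difference of -1.03 ± 0.17 (adjusted p = 7.77e-05). Clone B was also above parental cells in normoxia (0.42, adjusted p = 0.00972) and in hypoxia (0.31, adjusted p = 0.0446), the latter lost without clone B hypoxia replicate 1 or 2 or any parental hypoxia library and with no filter on low counts.

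MXI1, a repressor of the MXD family (chromosome 10, 110207605 to 110287365, plus strand; 10 exon blocks), was the member with the largest hypoxic rise in parental cells. Parental libraries stood at 20.1, 19.8 and 23.2 CPM in normoxia, 82.8, 79.8 and 78.6 CPM in hypoxia and 178.5, 147.7 and 161.7 CPM in TIFM. Clone A stood at 32.6, 34.8 and 33.4 CPM, then 41.2, 33.7 and 34.9 CPM, then 74.2, 64 and 62 CPM. Clone B stood at 34.3, 31.6 and 30.8 CPM, then 39.8, 37.9 and 38 CPM, then 62.4, 63.3 and 59.5 CPM. Parental cells were therefore below both clones in normoxia and above both in hypoxia and in TIFM, with no library overlapping.

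In parental cells hypoxia raised MXI1 by 1.93 ± 0.10 (SE, adjusted p = 2.94e-13) on the log2 scale. The same step was 0.12 ± 0.10 (adjusted p = 0.404) in clone A and 0.26 ± 0.10 (adjusted p = 0.0988) in clone B, where DESeq2 and fits without the TIFM libraries or with only the compared libraries called it. The response was lower than the parental one by -1.81 ± 0.14 (adjusted p = 2.09e-09) in clone A and -1.67 ± 0.14 (adjusted p = 7.56e-09) in clone B, and both differences passed in every alternative. TIFM raised MXI1 on top of hypoxia in all 3 genotypes, by 1.02 ± 0.10 in the parental line, 0.87 ± 0.10 in clone A and 0.68 ± 0.10 in clone B. With library totals alone the clone A value was 0.56. These TIFM responses did not differ at the threshold, with clone minus parental values of -0.15 (adjusted p = 0.416) and -0.34 (adjusted p = 0.12). The hypoxia step was thus smaller in both clones, and the TIFM step was called in all 3 genotypes.

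RefSeq (GRCh38.p14) lists 3 promoters for MXI1, each with 250 bases before the start site and 50 after. They were searched on both strands for the hypoxia-response core, spelled ACGTG or GCGTG, and for the E-box CACGTG, which contains ACGTG on both strands. ACGTG or GCGTG occurs in 48.4% of the 35116 promoters in the table, and CACGTG in 7.26%. Among the members, 7 of the 8 with a RefSeq promoter hold ACGTG or GCGTG, in 10 of 13 promoters. The motif is therefore not particular to MXI1. The most upstream MXI1 promoter (chr10:110207355-110207654) holds neither. The other pair is shown because MXI1 is the member whose hypoxia response differed most between genotypes. The 250 bases before each start are given 5′ to 3′ on the plus strand, with matches in capitals.
MXI1 start at the second promoter, chr10:110209981-110210230: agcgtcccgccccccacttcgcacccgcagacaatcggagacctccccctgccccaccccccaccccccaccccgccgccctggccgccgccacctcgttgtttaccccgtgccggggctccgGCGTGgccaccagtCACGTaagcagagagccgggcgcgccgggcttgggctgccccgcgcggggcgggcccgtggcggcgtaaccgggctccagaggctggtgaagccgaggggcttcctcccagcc
MXI1 start at the third promoter, chr10:110225746-110225995: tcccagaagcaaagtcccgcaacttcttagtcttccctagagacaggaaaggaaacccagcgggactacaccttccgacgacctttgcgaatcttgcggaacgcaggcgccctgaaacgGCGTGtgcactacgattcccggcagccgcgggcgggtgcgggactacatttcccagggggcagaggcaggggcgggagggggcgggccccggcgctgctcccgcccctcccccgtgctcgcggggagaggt
In the first of these sequences GCGTG lies 127 bases and a minus-strand ACGTG 113 bases before the start. In the other GCGTG lies 131 bases before the start. That promoter also holds a minus-strand GCGTG at position 9 counted from the start, beyond the bases shown. The counts are summed over the whole gene and do not tell which start was used.

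MXD1, the founding MXD repressor (chromosome 2, 69897688 to 69942945, plus strand), was higher in both ARNT clones than in parental cells in all 3 conditions. In normoxia parental libraries stood at 19, 18.8 and 21 CPM, clone A at 61, 62.3 and 59.3 CPM and clone B at 81.8, 78.1 and 82 CPM. In hypoxia parental libraries stood at 25.5, 27.7 and 21.1 CPM, clone A at 202.5, 123.5 and 156.1 CPM and clone B at 113.6, 151.8 and 202.5 CPM. Neither clone overlapped parental cells in these conditions. In TIFM the libraries scattered, from 22.4 to 53.8 CPM in parental cells, 46.7 to 188.3 CPM in clone A and 61.1 to 300.1 CPM in clone B, and clone A overlapped parental cells.

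Clone A exceeded parental cells in MXD1 by 1.64 ± 0.45 (SE, adjusted p = 0.00585) in normoxia, 2.70 ± 0.46 (adjusted p = 3.14e-05) in hypoxia and 1.33 ± 0.44 (adjusted p = 0.011) in TIFM on the log2 scale. Clone B exceeded them by 2.04 ± 0.45 (adjusted p = 0.00103), 2.66 ± 0.46 (adjusted p = 4.42e-05) and 2.06 ± 0.45 (adjusted p = 0.000471). The clone A call in TIFM was lost without clone A TIFM replicate 3, where the difference was 0.39 (adjusted p = 0.459), without parental TIFM replicate 2 and in a fit of only the compared libraries. The clone B difference in TIFM was 1.22 (adjusted p = 0.0151) without clone B TIFM replicate 3. Hypoxia raised MXD1 in clone A by 1.40 ± 0.43 (adjusted p = 0.0223), a call lost without clone A hypoxia replicate 1 or any clone A normoxia library and with no filter on low counts. In clone B the step was 0.95 (adjusted p = 0.168) and in parental cells 0.34 (adjusted p = 0.603), with no overlap between normoxia and hypoxia in either. Fits of only the compared libraries called both steps (adjusted p = 0.0166 in parental cells), and the fit without TIFM called that of clone B (adjusted p = 0.000849). No difference between genotypes in this step passed. Its RefSeq promoter (chr2:69914859-69915158) holds none of the 3 motifs, while 7 of the 8 members with a promoter hold ACGTG or GCGTG.

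MXD4, another MXD repressor (chromosome 4, 2247432 to 2262294, minus strand), rose in hypoxia in parental cells and clone A and fell in TIFM in all 3 genotypes. Parental libraries held 20.7, 24.1 and 17.7 CPM in normoxia, 35.9, 37.4 and 36.5 CPM in hypoxia and 16.2, 19.1 and 15.9 CPM in TIFM. Clone A held 17.9, 16.5 and 17.3 CPM, then 33.1, 23.6 and 24.2 CPM, then 5.89, 10.4 and 8.99 CPM. Clone B held 25.6, 25.1 and 22.5 CPM, then 22.2, 25.6 and 30.4 CPM, then 8.32, 9.31 and 8.61 CPM. The hypoxic groups lay above TIFM in each genotype without overlap, while hypoxia and normoxia overlapped in clone B.

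Hypoxia changed MXD4 by 0.81 ± 0.16 (SE, adjusted p = 0.000388) in parental cells, 0.64 ± 0.16 (adjusted p = 0.00568, lost without clone A hypoxia replicate 1) in clone A and 0.10 ± 0.16 (adjusted p = 0.767) in clone B. Its log2 change in TIFM was -1.10 in the parental line, -1.68 in clone A and -1.58 in clone B, with adjusted p at or under 6.63e-06. Below parental cells stood clone A by -0.44 in hypoxia and -1.03 in TIFM, and clone B by -0.49 and -0.97. The clone A TIFM response was lower than the parental one by -0.58 ± 0.23 (adjusted p = 0.0481). It was lost with RLE factors, with no filter, with only the compared libraries, and without clone A hypoxia replicate 1, clone A TIFM replicate 1 (where it was -0.37) or any of the 6 parental libraries in it. The clone A call in hypoxia was lost without clone A hypoxia replicate 2 or 3 or any parental hypoxia library. The clone B call in hypoxia was lost without clone B hypoxia replicate 1 or 2.

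MXD3, the S-phase member of the MXD genes (chromosome 5, 177301461 to 177312757, minus strand), stood at 1.43 to 3.7 CPM over the 27 libraries. It shares 40.4% of its exon bases with PRELID1 and RAB24, and the strand setting of the counting is not given in the sources used here, so its level is uncertain. Its call in 1 comparison, clone A above parental cells in hypoxia (2.87 to 3.25 against 1.74 to 2.19 CPM; log2 difference 0.63, adjusted p = 0.0308), was lost without clone A hypoxia replicate 2 or 3, without parental hypoxia replicate 1 or 3, and with no filter on low counts.

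MNT, the broadly expressed antagonist of MYC (chromosome 17, 2384060 to 2401118, minus strand; 12.2% of exon bases shared with a gene on the other strand), rose in TIFM in both clones, and both responses exceeded the parental one. Parental libraries held 23.9, 25.2 and 26 CPM in normoxia, 21.2, 21.1 and 21 CPM in hypoxia and 21.5, 26.1 and 17.6 CPM in TIFM. Clone A held 19.7, 18.2 and 15.8 CPM, then 16.8, 14.5 and 15.9 CPM, then 43, 65.2 and 32.6 CPM. Clone B held 24.4, 21.2 and 22.8 CPM, then 15.8, 12.1 and 14.7 CPM, then 27.8, 28.6 and 24.1 CPM. In both clones every TIFM library was above every hypoxic one, whereas in parental cells TIFM overlapped hypoxia.

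The TIFM change of MNT was 1.57 ± 0.18 (SE, adjusted p = 1.79e-08) in clone A, 0.92 ± 0.17 (adjusted p = 8.43e-05) in clone B and 0.04 ± 0.17 (adjusted p = 0.865) in parental cells. The response differed from the parental one by 1.53 ± 0.24 (adjusted p = 2.68e-05) in clone A and 0.88 ± 0.24 (adjusted p = 0.0213) in clone B. The latter call was lost without clone B hypoxia replicate 2, clone B TIFM replicate 2 or parental TIFM replicate 3. In hypoxia MNT fell in clone B by 0.69 on the log2 scale (adjusted p = 0.0135), lost without clone B hypoxia replicate 2 or clone B normoxia replicate 1. The clone B response to TIFM was below that of clone A by a difference of -0.65 ± 0.24 (adjusted p = 0.0352), which was lost without clone A hypoxia replicate 2 or 3, clone A TIFM replicate 2, clone B hypoxia replicate 1 or 3 or clone B TIFM replicate 3 (-0.34 without clone A TIFM replicate 2), with library totals alone and with only the compared libraries. MNT was also below parental cells: -0.49 in clone A in normoxia (adjusted p = 0.032), lost without any of 5 of 6 libraries (all but clone A normoxia replicate 1), and -0.57 in clone B in hypoxia (adjusted p = 0.011), lost without clone B hypoxia replicate 2. In clone A in hypoxia the difference was -0.42 (adjusted p = 0.0535), with every library below the parental ones, and 7 alternatives called it, among them DESeq2, RLE factors and the fit without TIFM.

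MGA, the MAX partner of PRC1.6 (chromosome 15, 41621224 to 41773081, plus strand; 27 exon blocks), was highest in parental cells in normoxia, at 134.1, 112.7 and 138.4 CPM. Clone A there stood at 81.3, 90.7 and 84.5 CPM and clone B at 76.1, 69.2 and 76.1 CPM, without overlap with parental cells. The differences were -0.59 ± 0.19 (SE, adjusted p = 0.0189) in clone A and -0.80 ± 0.19 (adjusted p = 0.00208) in clone B on the log2 scale. The clone A call was lost without clone A normoxia replicate 1 or 3 or parental normoxia replicate 1 or 3. Hypoxia lowered MGA to 97.3, 85.4 and 88 CPM in parental cells (-0.51, adjusted p = 0.0428), a call lost on leaving out any of the 6 libraries but parental normoxia replicate 2, with no filter and with library totals alone. In clone B MGA went from 56.4, 59.5 and 62.4 CPM in hypoxia to 102.1, 97 and 88.8 CPM in TIFM, a rise of 0.69 ± 0.19 (adjusted p = 0.00348). In clone A it went from 84.8, 88.9 and 90.3 CPM to 94.8, 65.3 and 43.4 CPM, and the TIFM responses of the clones differed by 1.06 ± 0.27 (adjusted p = 0.00326, clone B minus clone A). Clone B in hypoxia was below parental cells by -0.60 (adjusted p = 0.0146), lost without clone B hypoxia replicate 1 or parental hypoxia replicate 1.

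MLX (chromosome 17, 42567068 to 42573239, plus strand; 18.1% of exon bases shared with PSMC3IP on the other strand) rose in TIFM in clone A and was not called between conditions in parental cells, except in fits of only the compared libraries, without TIFM or with library totals alone. Parental libraries held 40.5, 50.3 and 37.6 CPM in normoxia, 33.9, 34.8 and 34.7 CPM in hypoxia and 26.3, 29.8 and 29.7 CPM in TIFM. Clone B held 41.4, 45.4 and 42.1 CPM, then 35.4, 33.3 and 32.2 CPM, then 23.9, 30 and 34.3 CPM. Clone A fell from 51.4, 48.4 and 51.4 CPM to 35.5, 35.6 and 37.4 CPM in hypoxia and stood at 37.7, 58.1 and 72.9 CPM in TIFM. The TIFM change was 0.63 ± 0.16 (SE, adjusted p = 0.000916) in clone A, above the parental response by 0.90 ± 0.22 (adjusted p = 0.00224) and above that of clone B (-0.83 ± 0.22 for clone B minus clone A, adjusted p = 0.00486, lost in a fit of only the compared libraries). The TIFM change in clone A was 0.42 without clone A TIFM replicate 3 and 0.31 with library totals alone. The hypoxic fall in clone A (-0.48, adjusted p = 0.0285) was lost on leaving out any of its 6 libraries. Clone A in TIFM exceeded parental cells by 0.97 ± 0.16 (adjusted p = 8.51e-06).

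MLXIP, the MondoA sensor of glucose 6-phosphate, had group means of 137.2, 198.7 and 169.7 CPM in parental cells in normoxia, hypoxia and TIFM, and 81.3 to 116.5 CPM in the clones. MLXIP rose in hypoxia in parental cells (0.53 ± 0.12, adjusted p = 0.00102, edgeR) and fell in clone B (-0.45 ± 0.12, adjusted p = 0.0155). The difference of these responses passed (-0.98, adjusted p = 0.000356). In clone A the step was 0.04 ± 0.12 (adjusted p = 0.85). Its difference from the parental response did not pass (-0.50, adjusted p = 0.0718). MYCL, a paralog of MYC, had means of 1.5, 3.62 and 2.93 CPM in parental cells and stood at 0.196 to 0.502 CPM in the clones. It was below parental cells in all 6 comparisons, by log2 differences from -2.32 to -4.15. MYCN stayed under the filter on low counts in all groups.

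E-boxes occur in 3 of the 8 members with a RefSeq promoter, which are MXD4, MNT and MLX; MYC is not in that table. Their surroundings are shown because CACGTG is the site on which MAX dimers meet, with the E-box in capitals and each sequence 5′ to 3′ on the strand of its gene.
MXD4, chr4:2262315-2262359, minus strand: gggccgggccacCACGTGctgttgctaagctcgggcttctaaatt
MNT, chr17:2401221-2401280, minus strand: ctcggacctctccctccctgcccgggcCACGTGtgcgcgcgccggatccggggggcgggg
MLX, chr17:42567023-42567082, plus strand: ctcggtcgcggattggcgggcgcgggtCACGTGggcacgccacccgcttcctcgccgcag
Counted from the start site, the E-box begins at position -238 in MXD4, -193 in MNT and -50 in MLX. These genes did not move alike: in TIFM MXD4 fell in all 3 genotypes, MNT rose in both clones and MLX rose in clone A.

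Summed over the 7 MAX partners measured here (MYC, the MXD genes, MNT and MGA), transcripts per kb show how the mixture shifted. MYC made up 59 ± 4.07% (SD, n = 3) of this sum in parental normoxia, 56.6 ± 1.48% in hypoxia and 59.2 ± 6.45% in TIFM. The share of the MXD genes in parental cells went from 21.3% to 33.9% and 34.9% over the same conditions. In clone A the MYC share was 62.2 ± 1.39%, 48.5 ± 3.9% and 84.4 ± 3.08%, and the 3 conditions did not overlap. In clone B it was 60.8 ± 1.62%, 54.9 ± 4.52% and 65.2 ± 10.6%, with TIFM libraries at 72.2%, 70.3% and 53.1% that overlap the hypoxic ones.

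The kind of MXD transcript also differed by genotype. MXI1 made up 41.3% of the summed MXD transcripts per kb in parental normoxia, 64.8% in hypoxia and 79.8% in TIFM. In hypoxia the clones had 21.4% (A) and 23.3% (B), and MXD1 made up 66.8% and 65.5% there against 14.4% in parental cells. In normoxia MXI1 made up 36.9% (A) and 29.6% (B), and MXD1 48.5% and 53.8% against 27.9% in parental cells. In TIFM MXI1 made up 50.4% in clone A (libraries 29.8% to 62.2%) and 38.7% in clone B (20.9% to 54.7%). MXD1 made up 43.35% and 56.6% there, against 13.4% in parental cells. The MXD sum in hypoxia was lower in parental libraries, at 25.9 to 27.5 CPM per kb, than in clone A (30.7 to 46.1) or clone B (30.1 to 44.9), without overlap. It was also lower in parental libraries in normoxia, at 10.6 to 11.4 against 19.4 to 20.2 (clone A) and 23.1 to 24.4 (clone B). In TIFM the genotypes overlapped, at 39 to 47.7 in parental cells, 23.4 to 45.1 in clone A and 24.8 to 61.7 in clone B. The MXD4 part was lowest in TIFM, at 5.55%, 4.12% and 3.54% in parental cells, clone A and clone B. These shares are descriptions of transcripts and say nothing of the proteins or of which dimers formed.

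**Figure D3:**
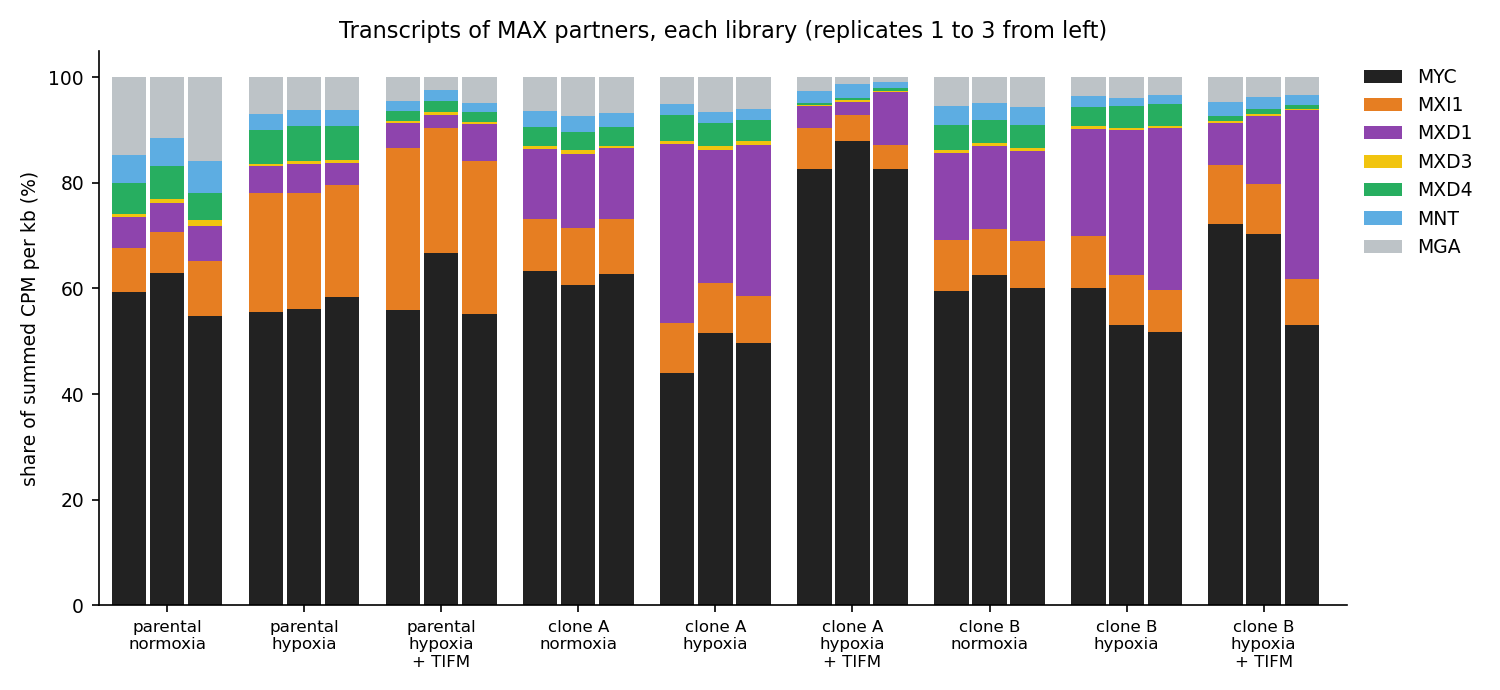
Share of each MAX partner in the summed CPM per kb (y axis, percent) in every library, grouped by genotype and condition. MXI1 widens in parental hypoxia and TIFM, MXD1 widens in the hypoxic clones, and MYC takes 82.6% to 88% in clone A in TIFM.

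A list of 67 genes known as direct MYC-activated targets, mostly of ribosome assembly, nucleotide synthesis and the cell cycle, held 59 tested genes. In hypoxia 32 of them fell and 1 rose in parental cells, with a median log2 change of -0.39 against -0.002 over all genes, of which 14.9% fell. In clone A 31 fell and 1 rose (median -0.41; 11.8% of all genes fell), and in clone B 7 fell and 0 rose (median -0.23; 4.84% fell). These counts moved by over 1.5 times without single libraries: 18 fell in parental cells without parental normoxia replicate 2, and 17 in clone A without clone A hypoxia replicate 1. In clone B 2 or 3 fell without clone B hypoxia replicate 2 or 3 or any clone B normoxia library, 11 without clone B hypoxia replicate 1, and 34 with only the compared libraries. In parental cells MYC itself rose in this comparison. In parental cells CDC25A, a cell cycle phosphatase, fell by 1.29 on the log2 scale and ODC1, the first enzyme of polyamine synthesis, by 0.87, while PTMA rose by 0.38. RRS1, a ribosome assembly factor, fell by 1.40 (clone A) and 0.99 (clone B).

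In TIFM more of the list rose than fell. In parental cells 30 rose and 8 fell (median 0.43), in clone A 46 rose and 6 fell (median 1.22) and in clone B 35 rose and 8 fell (median 0.48). Of all genes 21.8%, 33% and 25.9% rose in the same order. Scaled by library totals alone, higher calls made up 39%, 35% and 34.7% of all calls instead of 51.6%, 49.1% and 48.1%, while the list still had 27, 43 and 28 that rose. The uracil glycosylase UNG (1.29) and the folate carrier SLC19A1 (1.27) were among those that rose in parental cells, and the ribosome assembly factors RRS1 (2.84) and PES1 (2.61) in clone A. In clone B they included DDX18 (1.6) and NOP58 (1.51), both of the nucleolus. TFRC, the transferrin receptor, fell in all 3 genotypes, from 1711 to 262.5 CPM in parental cells, 1225 to 325.9 CPM in clone A and 1085 to 285.3 CPM in clone B as group means.

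The TIFM response of clone A exceeded the parental one in 41 of the 59 genes and was below it in 2, with a median difference of 0.82 (19.3% and 19.6% of all genes). For clone B the counts were 8 and 2 (4.06% and 6.34% of all genes), with a median of 0.09, and 5 were higher with library totals alone or without clone B hypoxia replicate 2 or 3, clone B TIFM replicate 1 or any parental hypoxia library. Clone B minus clone A gave 1 higher and 35 lower (18.8% and 21.3% of all genes). RRS1 (2.30) and the ribosome assembly factor BYSL (1.78) were among those in excess in clone A, and the RNA polymerase I subunit POLR1B (0.99) in clone B. Clone A in TIFM is also the group with the widest spread, the lowest TMM factors and the lowest mitochondrial share, and the part of that in these counts was not tested. Without single libraries the number that rose in clone A in TIFM ranged from 45 to 49. Of the 8 list genes not tested, 7 are listed at 0 in all 27 libraries, among them NOP2 and HSPE1, which growing cells transcribe, so a 0 in this table need not mean an absent transcript.

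**Figure D4:**
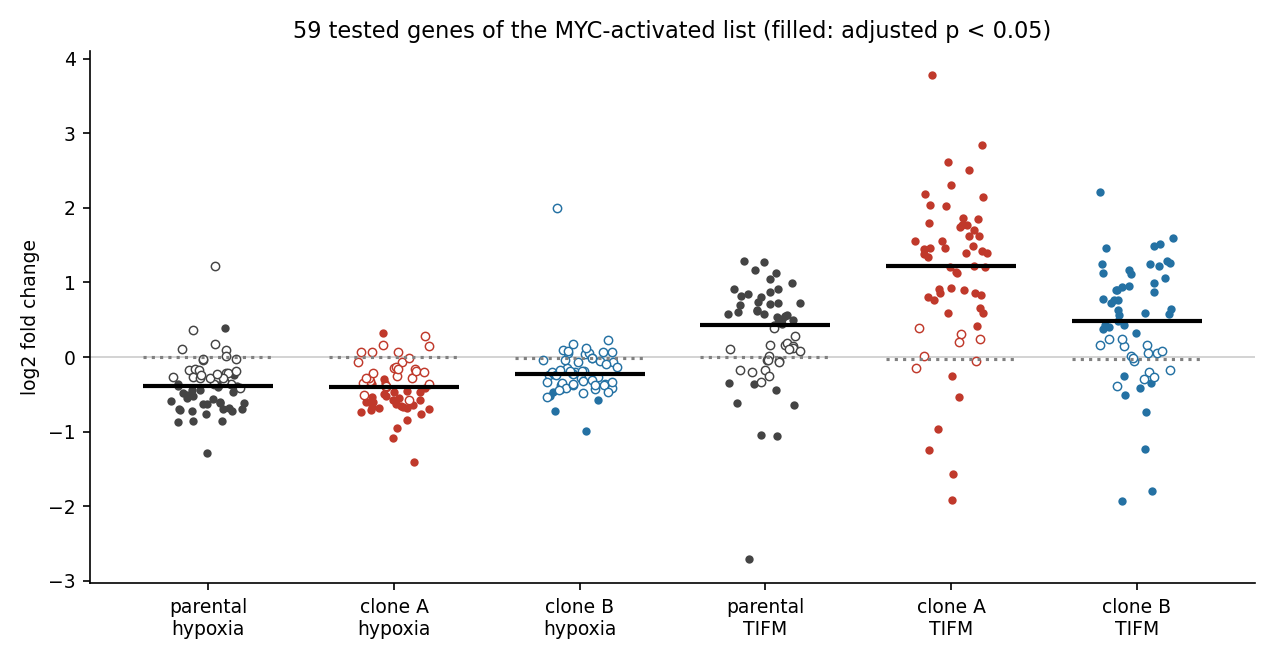
Log2 fold changes (y axis) of the 59 tested MYC-activated targets in the hypoxia and TIFM comparisons of each genotype, with 1 point per gene, the list's median as a solid bar and the median of all genes as a dotted bar. The list lies below 0 in hypoxia and above 0 in TIFM, farthest in clone A with a median of 1.22.

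Genes that MYC is known to repress were few, with 7 of 8 tested. NDRG1, a stress gene that hypoxia is also known to raise, rose in hypoxia in parental cells (7.16 to 90.9 CPM, log2 change 3.67), clone A (1.22) and clone B (1.15), and rose again in TIFM in all 3. The cell cycle inhibitor CDKN1A rose in hypoxia in parental cells (1.06) and fell there in TIFM (-0.85), as it did in clone B (-0.82). In clone A in TIFM it stood at 150.8 CPM against 71.8 CPM in hypoxia, and its response exceeded the parental one by 1.92 ± 0.25 (SE, adjusted p = 1.79e-06). In hypoxia 3 of the 7 rose in parental cells (15.4% of all genes rose), 3 in clone A (10.4%) and 2 in clone B (4.46%). None of the 7 fell in any genotype. In TIFM they went both ways, with 1 higher and 1 lower in parental cells (21.8% and 20.4% of all genes). The counts were 3 and 2 for clone A (33% and 34.2%) and 2 and 2 for clone B (25.9% and 27.9%).

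Among 14 genes of the SIN3 corepressor that MXD proteins and MNT recruit, SAP30 rose in hypoxia in parental cells, from 21.3 to 37.4 CPM (0.81 ± 0.13 SE, adjusted p = 3.31e-05). It went from 24 to 26 CPM in clone A and from 19.2 to 19.1 CPM in clone B, and its response was below the parental one by -0.70 (adjusted p = 0.0194) and -0.83 (adjusted p = 0.00684). It was the 1 gene of the list that rose in parental hypoxia (15.4% of all genes rose), while 5 fell (14.9%). In TIFM 6 rose and 6 fell in clone A (33% and 34.2% of all genes), among them SAP18 up by 1.93 and the corepressor NCOR1 down by -1.11. Of 11 PRC1.6 partners of MGA, L3MBTL2 fell in hypoxia in all 3 genotypes (-0.88, -0.90 and -0.73) and rose in TIFM in all 3 (0.51, 1.88 and 1.08). Of 15 chromatin cofactors that MYC or MAX bind, 9 rose and 0 fell in clone A in TIFM (33% and 34.2% of all genes), among them the acetyltransferase KAT5 (1.04) and WDR5 (1.00). In clone B 6 rose and 4 fell (25.9% and 27.9%), and in parental cells 4 rose and 2 fell (21.8% and 20.4%).

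Likeness was measured as Pearson's r of the 9 group means of log2 CPM over 10511 genes that reached 5 CPM in a group. The 5 genes most like MYC were COX7A2L (0.993), GPKOW (0.99), BPNT1 (0.988), MANBAL (0.986) and URM1 (0.985). For MXI1 they were STC2 (0.976), a hypoxia-induced secreted glycoprotein, ERGIC1 (0.975), RUNX1 (0.966), PIP5KL1 (0.96) and FADS3 (0.955). Within the network r was 0.911 between MYC and MAX and -0.936 between MAX and MXD4, over the same 9 points. These values share libraries and depth and are given as descriptions only.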

How the data were processed

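The data were polyA RNA sequencing of 27 libraries in 9 groups of 3. The deposited table holds raw read counts per gene (whole numbers, no normalization by the authors seen in the values). Per the submitters' processing notes, HISAT2, featureCounts and GRCh38 were used; no source used here gives their versions, annotation or strand setting. Symbols, coordinates and exon lengths came from the Ensembl identifiers through GENCODE release 29 (GRCh38), and promoters from RefSeq (GRCh38.p14).

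All 27 libraries went into 1 fit in edgeR 4.0.16 (R 4.3.3). Genes were kept by filterByExpr (minimum count 10, minimum total count 15), scaled by TMM and given 1 coefficient per group. Robust quasi-likelihood tests covered 18 contrasts, adjusted by Benjamini-Hochberg over 13943 genes within each, and called at 0.05. SEs are log2 fold changes divided by the square root of F. CPM are TMM-scaled, and CPM per kb divides by union exon length. The script was tested on simulated data in which every group had the same spread, unlike these libraries.

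Alternatives were RLE and upper-quartile factors, no filter, DESeq2 1.42.0, fits of only the compared libraries or without TIFM, a replicate block, and each library left out. Library totals alone were added after seeing the data. Members and lists were chosen with earlier results of these data known. Besides the 9 members, the text names from each list up to 2 called genes with the highest and 2 with the lowest log2 change per contrast, with a mean of at least 5 CPM and no overlap between libraries. MLXIP, MYCL, NOP2, HSPE1 and the marker genes stand outside that rule. Intervals cover the spread between libraries, which the fit estimated over the 9 groups together. The reads carry no molecular identifiers.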

Additional observations from a re-analysis of the deposited data

Results flagged for a closer look

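Every result here is a difference between 2 genotypes in the response to the same step, tested as an interaction with edgeR's quasi-likelihood test and given as a log2 difference. For hypoxia, the clone A response was below the parental one for MYC (-0.63) and MXI1 (-1.81), and the clone B response for MXI1 (-1.67). The MYC difference (adjusted p = 0.0361) was lost on leaving out any of its libraries except parental normoxia replicate 2. The MXI1 differences passed in every alternative. For TIFM, clone A minus parental was 1.68 for MYC, 1.70 for MAX, 1.53 for MNT, 0.90 for MLX and -0.58 for MXD4. Clone B minus parental was 0.67 for MAX and 0.88 for MNT. Clone B minus clone A in TIFM was -1.62 for MYC, -1.03 for MAX, -0.65 for MNT, -0.83 for MLX and 1.06 for MGA. Among those lost in some alternatives were the MXD4 value (adjusted p = 0.0481), both MNT values of clone B and the MLX value of clone B minus clone A. Most of the TIFM values rest on clone A in TIFM, the group with the widest spread (29.3%), and the part of that spread in them was not tested. Groups of 3 libraries were too small for a test of single outlying libraries.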

How the results depend on the processing

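No value changed sign while called. The number of member calls for hypoxia over the 3 genotypes was 11, and 17 without the TIFM libraries or 18 with only the libraries compared. The cause was not tested. The calls for clone B responses minus clone A responses went from 5 to 3 with only the libraries compared. Over the other settings the calls stayed within 1.5 times: with each library left out in turn they ranged from 8 to 14 for hypoxia (11 as reported), 16 to 17 for TIFM (16), 27 to 33 for clones against parental cells (31), 8 to 13 for clone minus parental responses (10) and 4 to 6 for clone B minus clone A (5). With a replicate block the calls were 11, 17, 32, 11 and 5 in the same order. Deviations of same-numbered libraries had a median correlation of -0.005 over 108 pairs, from -0.19 to 0.45, with 17 over 0.1. On average 12 of 27 libraries were closest to their own number. These values pool all conditions, and same-numbered libraries in TIFM alone were not tested. Counts over all genes that moved by over 1.5 times did so mostly in the hypoxia comparisons: with only the libraries compared, parental cells went from 4212 to 6804, clone A from 3097 to 4860 and clone B from 1297 to 4242, and without the TIFM libraries to 6775, 5783 and 3925. Without clone A hypoxia replicate 1 or clone A normoxia replicate 2 the clone A count was 1916 or 2054, and in clone B leaving out single libraries gave 527 to 817. Clone B against parental cells in normoxia went from 3697 to 5710 and 5707, and the hypoxia responses against parental from 869 to 2656 and 2952 in clone A and from 660 to 2592 and 2300 in clone B. For clone B minus clone A in hypoxia they went from 0 to 57 and 125, and to 1 without clone B hypoxia replicate 3. In TIFM, only the libraries compared gave 5402 in place of 8597 for clone A against parental cells, 3539 in place of 5426 for its response and 3252 in place of 5583 for clone B minus clone A, and without parental hypoxia replicate 1 the clone B response count was 933 in place of 1450. Scaling by library totals alone moved the median of all genes by -0.11, -0.30 and -0.16 in the TIFM comparisons of parental cells, clone A and clone B; the change of MYC in clone A was then 2.11 and that of MAX 2.42. Upper-quartile factors changed the clone B hypoxia calls from 48% to 59.6% higher. Depth limits MXD3 most, whose libraries held 38 to 106 counts.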

Other observations

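Of 15 tested genes that control the turnover of MYC protein, 6 fell and 1 rose in hypoxia in parental cells (14.9% and 15.4% of all genes), 3 fell and 1 rose in clone A (11.8% and 10.4%) and 2 fell and 1 rose in clone B (4.84% and 4.46%). In TIFM 5 fell and 3 rose in parental cells (20.4% and 21.8% of all genes), 10 fell and 3 rose in clone A (34.2% and 33%), and 10 fell and 3 rose in clone B (27.9% and 25.9%). USP36, a nucleolar deubiquitinase that stabilises MYC, rose in TIFM by 1.58 ± 0.12 (SE, clone A) and 1.14 ± 0.12 (clone B), and its response exceeded the parental one in both (1.34 and 0.90; adjusted p = 1.54e-06 and 0.00127, edgeR). The kinases AURKA (-1.46 in clone A, -1.38 in clone B) and PLK1 (-1.67 in clone B), which stabilise MYC proteins, fell in TIFM. In parental cells hypoxia already lowered PLK1 by -1.01, from 135.3 to 67.2 CPM, and AURKA went from 241.9 to 125.6 CPM. In hypoxia GSK3B, the kinase that marks MYC for degradation, rose in the parental line (0.45), clone A (0.62) and clone B (0.43), and USP28 and SKP2 fell in both clones by 0.68 to 0.74. In parental cells over the same step USP28 went from 110 to 80.9 CPM and SKP2 from 32 to 17.6 CPM. The ubiquitin ligase gene FBXO32 stood at 12, 7.35 and 10.1 CPM in parental cells in normoxia, hypoxia and TIFM and at 14.9 to 47.9 CPM in the clones.

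The MXD1 libraries in TIFM spread widely within each genotype: 38.9, 22.4 and 53.8 CPM in parental cells, 54.1, 46.7 and 188.3 CPM in clone A and 61.1, 117.8 and 300.1 CPM in clone B. Replicate 3 was the highest in each genotype. For MYC in TIFM, replicate 2 was the highest in each (271.2, 760 and 304.1 CPM). The labels do not say whether same-numbered TIFM libraries were handled together, and this was not tested.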
